A study of Homo sapiens with 16 samples.

Results

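The 10 genes described here belong to the output arm of the Hippo pathway: the coactivators YAP1 and WWTR1 (which encodes TAZ), the DNA-binding factors TEAD1 and TEAD4, the target genes CCN1, CCN2, ANKRD1, AJUBA and F3, and the kinase gene LATS2. They were taken by name, as a list drawn up with earlier results of these data known, from a table of 26258 genes, and all 10 passed the filter that left 15019 genes for testing. Huh7 and Hep3B are human cell lines derived from hepatocellular carcinoma (HCC), and their mRNA was sequenced in 16 libraries, 2 for each of 8 groups. Each line was represented by parental cells, cells labelled DMSO, IR cells selected in rising concentrations of Sorafenib and CR cells selected at a constant high concentration. The labels give 7 μM Sorafenib for all IR and CR libraries and no treatment for the parental and DMSO libraries, so that the resistant state and the presence of the drug at harvest cannot be told apart. Each resistant group is 1 selected derivative of its line, and the sources used here do not say whether it is clonal. The study's methods call the RNA replicates biological but do not say whether they were separate cultures, so p-values measure only the spread between these libraries.

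In the Hippo pathway, the kinases LATS1 and LATS2 phosphorylate YAP and TAZ, which keeps both coactivators out of the nucleus and marks them for degradation. Without this phosphorylation YAP and TAZ enter the nucleus and bind DNA through TEAD factors, whose best known motif reads GGAATG, or CATTCC on the other strand. CCN1 and CCN2 encode secreted matrix-associated proteins, ANKRD1 encodes an ankyrin repeat protein, and all 3 are among the most widely used readouts of YAP and TAZ activity. In liver, YAP restrains hepatocyte differentiation and drives growth when it is unchecked. The activity of YAP and TAZ is set mainly at the level of the protein, which mRNA counts do not show.

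The promoters of CCN2 and ANKRD1 are shown because the changes of these 2 genes with resistance differed between the cell lines in what follows and because more than 1 copy of the TEAD motif lies close to their start sites. The sequences are the 250 bases upstream of the start site in RefSeq's promoter table (GRCh38.p14), each of which has a single exact match in GRCh37, the build of the deposited data. They are written 5′ to 3′ on the strand of the gene, with GGAATG in capitals. Both genes lie on the minus strand, CCN2 with the window chr6:132272513-132272762 and ANKRD1 with the window chr10:92680845-92681094, and neither window overlaps an annotated exon.
CCN2: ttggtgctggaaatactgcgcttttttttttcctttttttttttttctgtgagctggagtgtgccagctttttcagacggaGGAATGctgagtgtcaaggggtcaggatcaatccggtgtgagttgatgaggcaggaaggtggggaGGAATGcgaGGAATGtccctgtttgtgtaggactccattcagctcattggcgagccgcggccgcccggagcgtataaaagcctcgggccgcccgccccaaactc
ANKRD1: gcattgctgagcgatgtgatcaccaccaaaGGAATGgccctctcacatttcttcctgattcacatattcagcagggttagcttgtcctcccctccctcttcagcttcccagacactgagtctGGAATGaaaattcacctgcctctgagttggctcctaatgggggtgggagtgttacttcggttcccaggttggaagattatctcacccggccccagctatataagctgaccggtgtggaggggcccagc
The CCN2 window held 3 copies, which started 169, 104 and 95 bases upstream of the start site, and the ANKRD1 window held 2, which started 220 and 128 bases upstream. Searched on both strands in the same way, 11.9% of all 35116 promoter windows of 250 bases held at least 1 copy, 0.94% held at least 2 and 0.0826% held at least 3. Of the 10 genes, 7 had a window in the table. YAP1 held 1 copy, which started 162 bases upstream, AJUBA held 1 in 1 of its 2 windows, 59 bases upstream, and the windows of WWTR1, F3 and LATS2 held none of these letters.

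Values are CPM, the reads of a gene relative to all reads of its library, and recovered library totals lay between 46613302 and 76860251 reads. Differences are log2 fold changes of CPM + 1 from limma with a standard error (SE), and a gene was called at a Benjamini-Hochberg (BH) adjusted p under 0.05 over all 15019 genes if its log2 fold change was also 0.58 or more in size. The replicates of Huh7 DMSO and Huh7-IR differed most across genes, with an SD of the log2 difference of 0.571 and 0.566, against 0.236 to 0.310 in the other groups. In Huh7-IR cells all genes together had a median log2 fold change of 0.19 with CPM and 0.04 with TMM factors, so values in this comparison are to be read against a shift of this size. In bulk RNA, fewer cells that express a gene and less RNA per cell cannot be told apart.

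The levels of the 10 genes per kilobase of transcript differed widely. ANKRD1 had the highest, with group means between 158 and 815 CPM per kilobase. CCN2 had 57.0 to 293, CCN1 26.0 to 114 and AJUBA 37.2 to 75.2. In resistant Huh7 cells CCN1 exceeded CCN2, at 112 against 85.1 in IR and 98.1 against 80.7 in CR cells. The coactivators were lower than ANKRD1 and CCN2, with 14.7 to 46.9 CPM per kilobase for YAP1 and 8.17 to 42.8 for WWTR1. TEAD1, at 17.2 to 37.0 CPM per kilobase, exceeded TEAD4, at 7.06 to 16.7, while F3 had 2.96 to 17.5 and LATS2 3.18 to 11.0. In parental, DMSO and resistant Hep3B cells F3 and LATS2 were the lowest of the 10, but in Huh7-IR cells both exceeded TEAD4, and in Huh7-CR cells F3 exceeded TEAD4 and WWTR1. In the library with the fewest reads of each gene, F3 still had 384 reads and YAP1 5157.

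**Figure D1:**
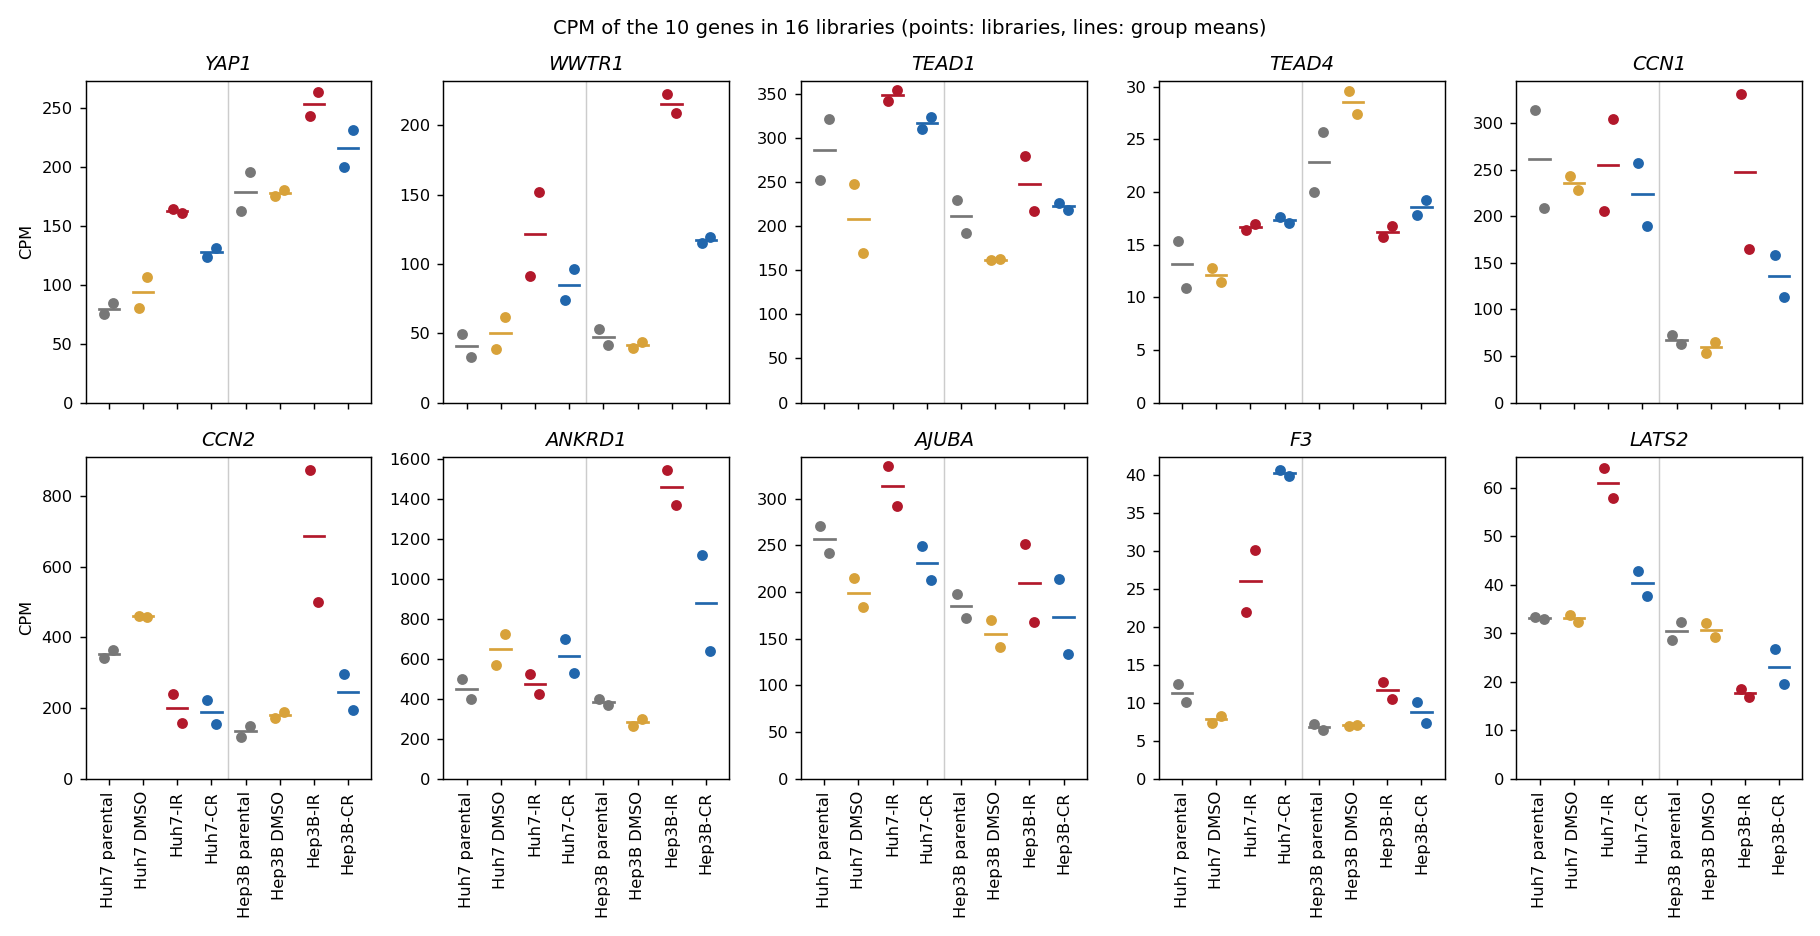
CPM of the 10 genes in all 16 libraries, one panel a gene, with linear axes that start at 0. Points are libraries and lines are means of 2 replicates. YAP1 and WWTR1 are higher in IR and CR than in parental and DMSO libraries of both lines, while CCN2 goes from 340 and 363 CPM to 239 and 158 in Huh7-IR cells and from 118 and 148 to 872 and 500 in Hep3B-IR cells.

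Both coactivator genes had more mRNA in resistant cells of both lines, WWTR1 in all 4 comparisons past the test and YAP1 in both Huh7 comparisons. YAP1 (gene ID 10413, chromosome 11, 101981178 to 102104155 in GRCh37) had 75.0 and 84.2 CPM in the Huh7 parental libraries, 80.6 and 107 in DMSO, 164 and 161 in IR and 124 and 131 in CR cells. In Hep3B, YAP1 stood at 163 and 195 CPM in parental, 175 and 180 in DMSO, 243 and 263 in IR and 200 and 231 in CR cells. In each line, all 4 resistant libraries were above all 4 parental and DMSO libraries. The log2 fold change of YAP1 was 1.02 for IR and 0.67 for CR cells of Huh7 (SE 0.15), with limma adjusted p of 9.8e-05 and 0.00309. In Hep3B-IR cells it was 0.50 (limma adjusted p = 0.0199, under the fold threshold, with a 95% interval of 0.19 to 0.82), and in Hep3B-CR cells 0.27 (adjusted p = 0.166, interval -0.05 to 0.59). In the order of mean YAP1 levels all 4 Hep3B groups stood above all 4 Huh7 groups, although Hep3B parental replicate 1 lay between the Huh7-IR libraries, and parental and DMSO cells overlapped in each line. The Huh7-CR value was 0.58 with edgeR and with TMM factors, just under the fold threshold, and 0.45 against the DMSO libraries, while in Hep3B-IR cells YAP1 reached 0.64 and was called without Hep3B parental replicate 2.

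WWTR1 (gene ID 25937, chromosome 3, 149235022 to 149454501) showed the larger increase of the coactivator pair in each of the 4 comparisons. Its CPM in Huh7 were 49.1 and 33.1 in parental, 38.7 and 61.5 in DMSO, 91.2 and 152 in IR and 73.9 and 96.2 in CR libraries. In Hep3B they were 52.9 and 41.6 in parental, 39.0 and 43.9 in DMSO, 222 and 209 in IR and 115 and 120 in CR libraries. The lowest resistant library exceeded the highest parental or DMSO library in both lines, and the 4 parental and DMSO groups overlapped one another in the order of levels. In Huh7 the log2 fold changes of WWTR1 were 1.52 for IR and 1.04 for CR cells (SE 0.27), with limma adjusted p of 0.000477 and 0.00846. In Hep3B they were 2.18 for IR and 1.30 for CR cells, with limma adjusted p of 9.89e-05 and 0.00258. On the CPM + 1 scale the Hep3B-IR increase was 4.52-fold. The Huh7-CR increase lost the adjusted threshold without Huh7 parental replicate 2, at 0.77, without Huh7-CR replicate 2, at 0.86, and when the model held Huh7 libraries alone. Exons of YAP1 and WWTR1 overlap annotated transcripts of the opposite strand (WWTR1-AS1 for WWTR1), as do those of CCN2 (LINC01013), and the sources do not state whether counting used the strand, so reads of such a pair cannot be told apart.

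The TEAD factors, which carry YAP and TAZ to DNA, changed less, and none of their 8 comparisons of resistant with parental cells was called. TEAD1 (gene ID 7003, chromosome 11, 12695968 to 12966284) had 252 and 321 CPM in Huh7 parental, 248 and 169 in DMSO, 342 and 355 in IR and 310 and 323 in CR libraries. In Hep3B libraries TEAD1 was 230 and 192 CPM in parental, 162 and 163 in DMSO, 279 and 218 in IR and 227 and 218 in CR cells. Resistant libraries overlapped the parental ones in 3 of the 4 comparisons, and in Huh7-IR cells, where they did not, the log2 fold change was 0.29 (SE 0.18, limma adjusted p = 0.196, 95% interval -0.11 to 0.69). Against the DMSO libraries, which were the lowest for TEAD1 in each line, the log2 fold changes were 0.76 for IR and 0.63 for CR cells of Huh7 and 0.60 for Hep3B-IR cells, and all 3 were called.

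TEAD4 (gene ID 7004, chromosome 12, 3068496 to 3149842) had changes of opposite sign in the 2 lines. Huh7 libraries held 15.4 and 10.9 CPM in parental, 12.7 and 11.4 in DMSO, 16.4 and 16.9 in IR and 17.6 and 17.0 in CR cells, all resistant values being the higher. Hep3B libraries held 20.0 and 25.7 CPM in parental, 29.6 and 27.4 in DMSO, 15.7 and 16.7 in IR and 17.8 and 19.2 in CR cells, all resistant values being the lower. Taken singly, the TEAD4 log2 fold changes were not called (SE 0.18). For IR and CR cells they were 0.34 and 0.39 in Huh7, with limma adjusted p of 0.12 and 0.0996, and -0.46 and -0.28 in Hep3B, with limma adjusted p of 0.0688 and 0.241. The Huh7-CR value was 0.63 and called without Huh7 parental replicate 1, and against the DMSO libraries the Hep3B values were -0.78 and -0.59 and both were called.

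The 3 classical target genes CCN1, CCN2 and ANKRD1 all rose in resistant Hep3B cells, in all 6 comparisons, and none of them was called higher in resistant Huh7 cells, where CCN2 fell. CCN2 (gene ID 1490, also known as CTGF, chromosome 6, 132269316 to 132272512) is the gene whose promoter carries 3 motif copies above. Its CPM were 340 and 363 in Huh7 parental, 461 and 458 in DMSO, 239 and 158 in IR and 224 and 154 in CR libraries, so that every resistant library was below every other Huh7 library. In Hep3B, CCN2 stood at 118 and 148 CPM in parental, 173 and 189 in DMSO, 872 and 500 in IR and 296 and 195 in CR libraries, and every resistant library was above the rest. In Huh7 the log2 fold change of CCN2 was -0.85 for IR and -0.92 for CR cells (SE 0.28), with limma adjusted p of 0.0226 and 0.0217. In Hep3B it was 2.31 for IR and 0.85 for CR cells, with limma adjusted p of 9.52e-05 and 0.0318. The Hep3B-IR change was 4.96-fold on the CPM + 1 scale.

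Apart from the Hep3B-IR increase, the CCN2 calls were lost when some single libraries were left out, which leaves 1 library in a group of 2. The change itself was larger in size in some of these fits. With Huh7 parental replicate 1 left out the Huh7-IR value was -0.89, with parental replicate 2 left out -0.80 and with Huh7-IR replicate 2 left out -0.55, and the Huh7-CR value was -0.96, -0.87 and -0.65 without the same 2 parental libraries and Huh7-CR replicate 2. The CCN2 increase in Hep3B-CR cells was 0.69 without Hep3B parental replicate 1, 1.02 without replicate 2 and 0.56 without Hep3B-CR replicate 1. None of these 9 values passed the adjusted threshold, although each kept its direction. The Hep3B-CR value was not called either with edgeR (0.76), with TMM factors (0.74) or against the DMSO libraries (0.41), in which CCN2 exceeded the parental level in both lines, and without a filter on low genes neither CR call passed.

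CCN1 (gene ID 3491, also known as CYR61, chromosome 1, 86046444 to 86050272) had 313 and 208 CPM in Huh7 parental, 243 and 228 in DMSO, 205 and 304 in IR and 257 and 190 in CR libraries, with all groups overlapping the parental one. In Hep3B, CCN1 was 72.5 and 62.9 CPM in parental, 53.3 and 65.2 in DMSO, 331 and 165 in IR and 159 and 114 in CR libraries, and resistant cells stood clear of the rest. In the order of levels the Hep3B-IR libraries overlapped those of all 4 Huh7 groups, and the Hep3B-CR libraries lay below them and above the remaining Hep3B groups. In Huh7 the log2 fold changes of CCN1 were -0.03 for IR and -0.21 for CR cells (limma adjusted p of 0.945 and 0.64, with 95% intervals of -0.72 to 0.65 and -0.89 to 0.48). In Hep3B they were 1.78 for IR and 0.98 for CR cells (SE 0.32, limma adjusted p of 0.00114 and 0.0269). Quantile normalization turned the Huh7-IR value to 0.05. The Hep3B-CR increase missed the adjusted threshold at 1.08 without Hep3B parental replicate 1, at 0.88 without replicate 2, at 0.74 without Hep3B-CR replicate 1 and, with the fold change of 0.98 unchanged, when no filter was set on low genes.

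ANKRD1 (gene ID 27063, chromosome 10, 92671853 to 92680844) was the most abundant of the 10 genes per kilobase. Huh7 cells had 500.0 and 400.4 CPM in parental, 570.0 and 725 in DMSO, 525 and 424 in IR and 697 and 531 in CR libraries. In Hep3B the gene stood at 398 and 367 CPM in parental, 265 and 299 in DMSO, 1545 and 1371 in IR and 1119 and 640 in CR libraries. Hep3B-IR cells exceeded every other group, and Hep3B-CR cells overlapped Huh7 DMSO cells in the order of levels. In Hep3B, ANKRD1 rose by 1.93 on the log2 scale in IR and by 1.14 in CR cells (SE 0.24), with limma adjusted p of 0.00011 and 0.00296, and the Hep3B-CR value was 0.74 and still called without Hep3B-CR replicate 1. In Huh7-IR cells the ANKRD1 log2 fold change was 0.08 (limma adjusted p = 0.813, 95% interval -0.45 to 0.60), and it was -0.12 with edgeR and with TMM factors and -0.13 with DESeq2. In Huh7-CR cells it was 0.44 (adjusted p = 0.167, interval -0.09 to 0.97).

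F3, which encodes tissue factor, the cell surface initiator of blood coagulation, rose in 3 of the 4 comparisons. F3 (gene ID 2152, chromosome 1, 94994729 to 95007315) had 12.4 and 10.0 CPM in Huh7 parental, 7.34 and 8.24 in DMSO, 22.0 and 30.1 in IR and 40.7 and 39.9 in CR libraries. In Hep3B it had 7.26 and 6.34 CPM in parental, 6.95 and 7.11 in DMSO, 12.8 and 10.5 in IR and 10.1 and 7.31 in CR libraries. Resistant libraries were above parental and DMSO libraries in both lines, although Hep3B-CR replicate 2, at 7.31 CPM, was close to Hep3B parental replicate 1, at 7.26. In Huh7 the log2 fold changes of F3 were 1.14 for IR and 1.76 for CR cells (SE 0.21, limma adjusted p of 0.000524 and 3.65e-05). In Hep3B they were 0.69 for IR cells (limma adjusted p = 0.022) and 0.30 for CR cells (adjusted p = 0.264, 95% interval -0.14 to 0.75). In Huh7 both CR libraries exceeded both IR libraries, the reverse of the order of YAP1 and LATS2. The Hep3B-IR increase of F3 was not called without Hep3B parental replicate 1 (0.78), Hep3B parental replicate 2 (0.61) or Hep3B-IR replicate 1 (0.56), after quantile normalization (0.49), with a pseudocount of 4 CPM (0.53) or with the 2 groups alone in the model (0.69).

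AJUBA (gene ID 84962, chromosome 14, 23440386 to 23451760) encodes a LIM domain protein that binds LATS kinases and restrains them. It had 271 and 242 CPM in Huh7 parental, 215 and 184 in DMSO, 335 and 292 in IR and 249 and 213 in CR libraries. In Hep3B the values of AJUBA were 198 and 172 CPM in parental, 170 and 141 in DMSO, 252 and 168 in IR and 214 and 133 in CR libraries. Huh7-IR was the only resistant group clear of its parental libraries. The AJUBA log2 fold changes, 0.29 and -0.15 for Huh7 IR and CR cells and 0.16 and -0.13 for the same groups of Hep3B (SE 0.23), were not called, with limma adjusted p of 0.302 to 0.704 and 95% intervals that together spanned -0.65 to 0.79. Against the DMSO libraries the Huh7-IR value was 0.65 and called. An annotated transcript on the same strand overlaps exons of AJUBA, and its reads may be shared.

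LATS2, a kinase that restrains YAP and TAZ and is itself induced by them, rose in Huh7-IR cells and fell in Hep3B-IR cells. LATS2 (gene ID 26524, chromosome 13, 21547175 to 21635725) had 33.5 and 33.0 CPM in Huh7 parental, 33.9 and 32.4 in DMSO, 64.0 and 57.9 in IR and 42.8 and 37.7 in CR libraries. In Hep3B the kinase gene had 28.7 and 32.4 CPM in parental, 32.1 and 29.2 in DMSO, 18.4 and 16.8 in IR and 26.7 and 19.5 in CR libraries. Parental and DMSO libraries of both lines lay within 28.7 to 33.9 CPM, all Huh7 resistant libraries lay above this range and all Hep3B resistant libraries below it. On the log2 scale LATS2 rose by 0.86 in Huh7-IR (SE 0.16, limma adjusted p = 0.000617) and fell by 0.76 in Hep3B-IR cells (adjusted p = 0.00312). The CR values of 0.27 in Huh7 and -0.40 in Hep3B were not called (limma adjusted p of 0.196 and 0.0625), and the latter was -0.62 and called without Hep3B-CR replicate 1.

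**Figure D2:**
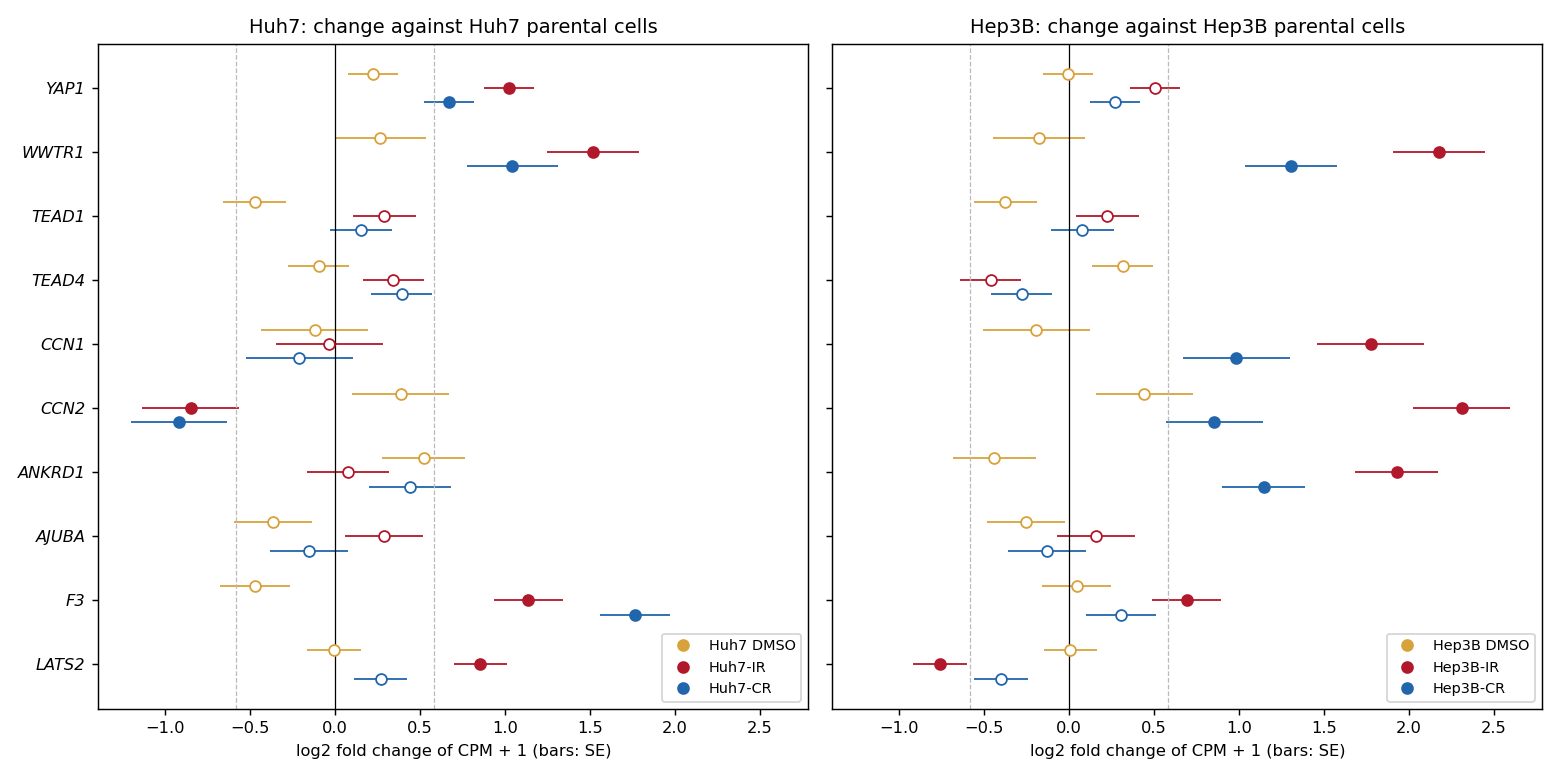
Log2 fold change of CPM + 1 of each gene against the parental cells of its line, Huh7 at left and Hep3B at right. Points are DMSO, IR and CR groups of 2 libraries with bars of 1 SE, filled points were called, and dashed lines mark 0.58. No DMSO point is filled, and CCN2 is at -0.85 in Huh7-IR and 2.31 in Hep3B-IR cells.

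Counted over the 10 genes, 4 were called higher and 1 lower in Huh7-IR cells, where of all genes tested 48.8% were called, 31.1% higher and 17.8% lower. In Huh7-CR cells 3 were higher and 1 lower, with 34.5% of all genes called, 20.9% higher and 13.6% lower. Hep3B-IR cells had 5 higher and 1 lower, against 27.1% of all genes, 15.7% higher and 11.4% lower, and Hep3B-CR cells had 4 higher and 0 lower, against 32.2%, 20.0% higher and 12.3% lower. The median log2 fold change of the 10 genes was 0.32 and 0.33 for IR and CR cells of Huh7 and 0.60 and 0.29 for those of Hep3B, where the medians of all genes were 0.19, 0.07, 0.06 and 0.11. Both Huh7 counts were thus near the share of all genes called, and the Hep3B-IR count of higher genes was farthest above it. The balance of calls over all genes moved with the scaling, since 63.6% of calls in Huh7-IR cells were higher with CPM and 49.8% after quantile normalization, while of the 10 genes 4 were higher and 1 lower under both. IR and CR cells of a line share their parental libraries, so their values are not independent of each other.

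DMSO cells served as the background without drug. None of the 10 genes was called in DMSO cells against parental cells of either line by limma, edgeR or DESeq2, where limma called 4.83% of all genes in Huh7, 3.46% higher and 1.37% lower, and 1.58% in Hep3B, 1.07% higher and 0.513% lower. At an unadjusted p under 0.05 without the fold threshold, limma counted 2 of the 10 in Huh7 and 0 in Hep3B. The 2 were TEAD1 and F3, each with a log2 fold change of -0.47. How many of all genes met this looser criterion was not counted, and the shares above do not apply to it. The widest DMSO changes of the 10 genes were 0.52 for ANKRD1 in Huh7 and 0.44 for CCN2 in Hep3B, with limma adjusted p of 0.207 and 0.478. TEAD1 in Huh7 DMSO cells was called, at -0.75, without DMSO replicate 1.

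Libraries were also compared with no model, by asking whether all 4 resistant libraries of a line lay beyond all its 4 parental and DMSO libraries. In Huh7 this held for 5 genes upward (YAP1, WWTR1, TEAD4, F3 and LATS2) and 1 downward (CCN2), and the shares of all genes were 25.0% and 16.9%. In Hep3B it held for 6 upward (YAP1, WWTR1, CCN1, CCN2, ANKRD1 and F3) and 2 downward (TEAD4 and LATS2), with 25.2% and 16.5% of all genes. TEAD1 and AJUBA overlapped in both lines. YAP1, WWTR1 and F3 were thus the 3 genes that separated upward in both lines. How many of all genes did so in both lines was not counted, so this describes these genes and no more.

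The parental lines differed in 5 of the 10 genes, while of all genes 42.6% were called between them, 18.9% higher and 23.7% lower in Huh7. YAP1 was lower in Huh7 than in Hep3B parental cells by a log2 difference of -1.16 and TEAD4 by -0.76 (limma adjusted p of 3.83e-05 and 0.00356). CCN1, CCN2 and F3 were higher in Huh7, with log2 differences of 1.90, 1.40 and 0.64 and limma adjusted p of 0.000308, 0.00139 and 0.0199. Before selection the line with less YAP1 mRNA thus had more CCN1 and CCN2 mRNA. TEAD4 was at -0.53 and not called without Huh7 parental replicate 2, and F3 was not called at 0.50 without Huh7 parental replicate 1, at 0.56 without Hep3B parental replicate 2 or at 0.49 with a pseudocount of 4 CPM. TEAD1 was at 0.43 and was called, at 0.61, without Huh7 parental replicate 1.

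Whether resistance changed a gene alike in both lines was tested by the difference between the mean IR and CR change of Huh7 and that of Hep3B, in which 6 of the 10 genes and 29.4% of all genes were called, 16.3% with the higher and 13.1% with the lower value in Huh7. For the 3 classical targets Hep3B had the larger increase. The mean change of CCN2 was -0.88 in Huh7 and 1.58 in Hep3B, a difference of -2.46 (SE 0.35, limma adjusted p = 0.000279). CCN1 changed by -0.12 and 1.38, a difference of -1.50 (SE 0.39, adjusted p = 0.0113 by limma), and ANKRD1 by 0.26 and 1.54, a difference of -1.28 (SE 0.30, limma adjusted p = 0.00653). For the other 3, Huh7 had the larger value. LATS2 changed by 0.56 in Huh7 and -0.58 in Hep3B, a difference of 1.14 (SE 0.19, limma adjusted p = 0.000923), F3 by 1.45 and 0.50, a difference of 0.95 (SE 0.25, limma adjusted p = 0.0126), and TEAD4 by 0.37 and -0.37, a difference of 0.74 (SE 0.22, limma adjusted p = 0.0229).

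The coactivators did not show a called difference between the lines. YAP1 changed by 0.85 in Huh7 and 0.39 in Hep3B, a difference of 0.46 with a 95% interval of 0.07 to 0.85 and a limma adjusted p of 0.0691. WWTR1 changed by 1.28 and 1.74, a difference of -0.46 with an interval of -1.18 to 0.26. TEAD1 and AJUBA had differences of 0.07 and 0.05, with intervals of -0.42 to 0.56 and -0.56 to 0.67. The differences of CCN2, ANKRD1 and LATS2 were called under all 25 alternative settings, which included leaving out each library of the parental, IR and CR groups. Those of TEAD4, CCN1 and F3 each lost the call without 1 of 2 parental libraries: TEAD4 at 0.51 without Huh7 replicate 2 and 0.57 without Hep3B replicate 2, CCN1 at -1.21 without Huh7 replicate 1 and -1.40 without Hep3B replicate 2, and F3 at 0.81 without Huh7 replicate 2 and 0.87 without Hep3B replicate 1. The TEAD4 difference also lost the call after quantile normalization, at 0.62.

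**Figure D3:**
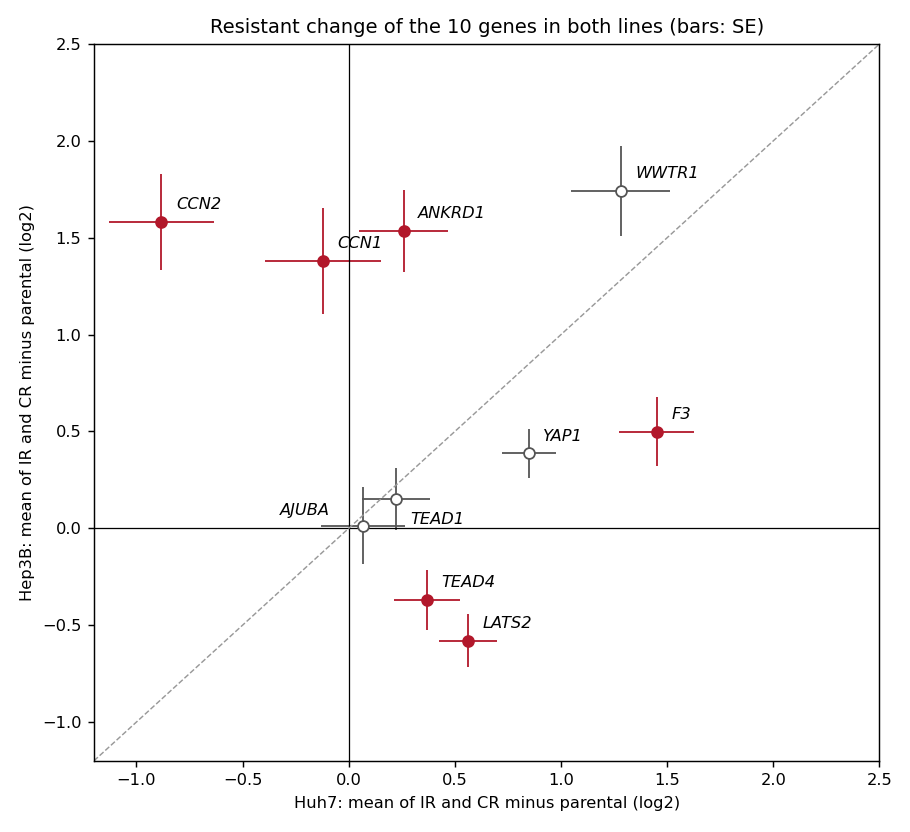
Mean log2 change of IR and CR cells against parental cells in Huh7 (horizontal axis) and Hep3B (vertical axis), with bars of 1 SE and a dashed line of equal change. Filled points have a called difference between the lines: CCN2, CCN1 and ANKRD1 lie above the line, with CCN2 at -0.88 and 1.58, and F3, LATS2 and TEAD4 lie below it.

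Over the 8 group means the 10 genes did not rise and fall as a block, as Pearson's correlations of mean log2(CPM + 1) describe. The groups share lines and parental cells and are not independent, so no p is given. TEAD1 and AJUBA were closest, at 0.91, followed by TEAD1 with F3 at 0.85 and WWTR1 with ANKRD1 at 0.82. YAP1 and WWTR1 had a correlation of 0.66, CCN2 and ANKRD1 of 0.72 and CCN1 and CCN2 of 0.62. YAP1 and CCN1 were at -0.40 and TEAD4 and CCN1 at -0.89, the lines differing in the parental level of all 3.

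Among 7668 genes whose group means varied enough to be compared, the genes closest to CCN2 over the 8 groups were IL12A (0.917), CATSPERB (0.907) and MTUS1 (0.904). Those closest to ANKRD1 were PERP (0.953), SH3RF1 (0.951) and INSIG2 (0.936). CCN1 was closest to AKR1C2 (0.984), AKR1C1 (0.982) and AKR1C3 (0.977), 3 closely related paralogs whose reads counting can split or lose, so their own levels are uncertain. YAP1 was closest to BIVM-ERCC5 (0.996), a read-through gene that shares reads with its neighbours, SLC25A29 (0.994) and ZFP62 (0.991). Such a ranking over 8 points describes these groups and no more.

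Other members of the Hippo pathway were followed through a list of 28 genes, of which 27 were tested and VGLL1 had 0 reads in all libraries. In Huh7, 7 were called higher and 4 lower in IR cells and 4 and 4 in CR cells. In Hep3B, 7 were higher and 2 lower in IR cells and 3 and 2 in CR cells. The shares of all genes called higher and lower were 31.1% and 17.8% for IR and 20.9% and 13.6% for CR cells of Huh7, and 15.7% and 11.4% for IR and 20.0% and 12.3% for CR cells of Hep3B. Their median log2 fold changes of -0.05, 0.12, 0.05 and -0.01 stood beside medians of all genes of 0.19, 0.07, 0.06 and 0.11. LATS1, the paralog of LATS2, was between -0.01 and 0.44 and was not called. How many of all genes were called in the same direction in all 4 comparisons was not counted. FRMD6, an upstream FERM domain protein, was the only gene of the list called in this way. It had 40.6 and 40.6 CPM in Huh7 parental, 146 and 103 in Huh7-IR and 139 and 119 in Huh7-CR libraries, and 36.9 and 49.7 in parental, 222 and 166 in IR and 279 and 138 in CR libraries of Hep3B. Its log2 fold changes were 1.58, 1.64, 2.13 and 2.17 (SE 0.28), with limma adjusted p from 0.000114 to 0.000643.

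The scaffold gene SAV1 had the next largest mean change of the list, with called log2 fold changes of 1.76 for IR and 0.77 for CR cells of Huh7 and 0.73 for Hep3B-CR cells, and 0.37, not called, for Hep3B-IR cells. SAV1 lost the Huh7-CR call without Huh7-CR replicate 1, at 0.67, the Hep3B-CR call without Hep3B-CR replicate 2, at 0.67, and both after quantile normalization (0.53 and 0.57). Against the DMSO libraries the Huh7-CR value of SAV1 was 0.38 and not called. The cofactor gene VGLL3, whose product binds TEAD factors, had one of the 2 lowest means. Its CPM were 4884 and 5695 in Huh7 parental, 926 and 2047 in IR and 1538 and 2073 in CR libraries, and VGLL3 had log2 fold changes of -1.94 and -1.56 for Huh7 IR and CR cells, both called, the latter not called without Huh7-CR replicate 1, at -1.35. In Hep3B parental libraries VGLL3 was 83.3 and 45.9 CPM, and its values of -0.59 in IR and -0.80 in CR cells were not called, while DESeq2 called the latter, at -0.995. DCHS1, an atypical cadherin gene, fell by 2.19 in Huh7-CR cells and had values of -1.08, -0.05 and -0.23 in Huh7-IR, Hep3B-IR and Hep3B-CR cells, which were not called. The Huh7-IR value of DCHS1 was called with DESeq2 (-1.33), with TMM factors (-1.25), after quantile normalization (-1.46), against the DMSO libraries (-1.56) and without Huh7-IR replicate 1 (-1.69), and, at -1.08, by the unadjusted p and with the Huh7 DMSO group left out.

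A further list held 17 genes known as YAP and TAZ targets, 16 of them tested, while FOXF2 reached at most 0.216 CPM. In Huh7, 10 were called higher and 3 lower in IR cells and 7 and 3 in CR cells. In Hep3B, 5 were higher and 4 lower in IR cells and 5 and 0 in CR cells. Their medians were 1.03, 0.68, 0.09 and 0.34, against all-gene medians of 0.19, 0.07, 0.06 and 0.11. The share of all genes called higher was also larger in Huh7-IR (31.1%) than in Hep3B-IR cells (15.7%), and 20.9% and 20.0% in the CR comparisons. In the difference of the resistant change between the lines, 5 of the 16 were called with the higher and 2 with the lower value in Huh7, against 16.3% and 13.1% of all genes. In DMSO cells 0 genes of the list were called in Huh7 and 1, lower, in Hep3B. Of the Hippo genes 0 were higher and 2 lower in Huh7, and 0 and 1 in Hep3B. Of all genes, 3.46% were higher and 1.37% lower in Huh7 DMSO cells, and 1.07% and 0.513% in Hep3B DMSO cells. All these targets are reached by other pathways too, and what moved them was not tested.

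MYOF, AXL and CRIM1 were the 3 further targets called higher in all 4 comparisons. How many of all genes were called higher in all 4 was not counted, and IR and CR cells of a line share parental libraries. MYOF, which encodes the membrane repair protein myoferlin, had 269 and 146 CPM in Huh7 parental, 987 and 1440.4 in IR and 911 and 886 in CR libraries, and 32.9 and 18.4 in Hep3B parental, 282 and 169 in IR and 288 and 261 in CR libraries. The log2 fold changes of MYOF were 2.58, 2.18, 3.10 and 3.42 (SE 0.33). AXL, a receptor tyrosine kinase gene, was at most 0.821 CPM in the parental libraries of both lines and at least 45.1 CPM in each resistant library. In DMSO libraries it was at most 0.603 CPM, so AXL passed the filter through resistant libraries alone. CRIM1, a transmembrane protein gene, changed by 0.74, 0.74, 1.11 and 0.59 (SE 0.18). The CRIM1 calls were close to the thresholds. The Hep3B-CR value was not called without Hep3B parental replicate 2 (0.41), without Hep3B-CR replicate 1 (0.48) or with edgeR (0.48), the Huh7-IR value with edgeR (0.54) or DESeq2 (0.53), and the Huh7-CR value without Huh7 parental replicate 2 (0.61).

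The lowest means of this list belonged to IGFBP3, which encodes a binding protein of insulin-like growth factors, and to CCDC80, a matrix protein gene. IGFBP3 had 445 and 416 CPM in Huh7 parental, 89.1 and 96.3 in IR and 146 and 129 in CR libraries, and fell by 2.20 and 1.64 on the log2 scale. In Hep3B it fell by 1.22 in IR cells, from 211 and 121 to 72.8 and 63.7 CPM, and had a value of -0.19 in CR cells. CCDC80 fell by 1.60 in Huh7-IR and 1.83 in Hep3B-IR cells, while -0.70 in Huh7-CR and -0.47 in Hep3B-CR cells were not called. In Huh7 the CCDC80 decrease was absent against DMSO libraries, at -0.23 in IR and 0.67 in CR cells, since DMSO cells had 161 and 78.2 CPM against 338 and 252 in parental cells.

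Markers of the labelled cell type moved with resistance. The summed CPM of 10 hepatocyte markers, led by ALB and APOB, was 7240 to 10091 in Huh7 parental libraries, 121 to 490 in IR and 1370 to 2790 in CR libraries. In Hep3B it was 19334 to 24098 in parental, 3765 to 10872 in IR and 2313 to 3526 in CR libraries. Of the 10, 8 were called lower in IR and 7 in CR cells of Huh7, and in Hep3B 3 were lower and 1 higher in IR cells and 6 lower in CR cells. Of all genes, 17.8%, 13.6%, 11.4% and 12.3% were called lower in these comparisons, in the same order. DMSO cells exceeded parental cells, with 17571 to 21299 CPM in Huh7 and 34176 to 40258 in Hep3B. The part of this change in the values above was not tested.

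For other cell types, the CPM of 9 fibroblast markers were summed. Huh7 gave 392 to 526 CPM in parental, 316 to 341 in IR and 506 to 790 in CR libraries. Of the 6 tested, 4 were called higher (COL1A1, COL1A2, COL3A1 and PDGFRB) and 2 lower (LUM and PDGFRA) in each resistant Huh7 group. Of all genes, 31.1% were higher and 17.8% lower in IR, and 20.9% and 13.6% in CR cells of Huh7. Mean COL1A2 went from 4.77 CPM in parental to 210 in IR and 354 in CR cells, and mean LUM from 303 to 40.4 and 174. In Hep3B the fibroblast sum was 63.1 to 70.3 CPM in parental, 72.5 to 103 in IR and 73.5 to 94.0 in CR libraries, with 1 of the 6 tested markers higher in each, COL1A1, and 1 lower, PDGFRB in IR and PDGFRA in CR cells. The shares of all genes called higher and lower in Hep3B were 15.7% and 11.4% for IR and 20.0% and 12.3% for CR cells. The fibroblast sum of DMSO libraries was 412 to 580 CPM in Huh7 and 54.4 to 62.0 in Hep3B. Among the fibroblast markers, THY1 was at 0 in 10 of 16 libraries and at most 0.0569 CPM in the rest, POSTN was at 0 in 9 and DCN in 2. The sum of 7 endothelial and blood cell markers was 5.18 to 7.57 CPM in Huh7 parental, 47.2 to 72.2 in IR and 46.8 to 48.5 in CR libraries, and in Hep3B it was 8.06 to 10.8 in parental, 38.2 to 51.9 in IR and 28.2 to 39.5 in CR libraries. Its largest part was CD68, which was called higher in all 4 comparisons and which many cell types express. The other 2 tested markers of this list, PECAM1 and PTPRC, were called lower in both resistant Huh7 groups, and neither was called in Hep3B. PECAM1 went from a mean of 1.26 CPM in parental to 0.0595 in IR and 0.173 in CR cells and PTPRC from 1.00 to 0.0546 and 0.239. Means of both reached 1 CPM only in Huh7 parental and DMSO cells, so the filter let them in mainly through groups where they were high. No conclusion is drawn from these lower calls. CDH5 was at 0 in 12, CD3E and HBB in 11 and VWF in 5 of the 16 libraries, and PTPRC did not exceed 1.32 CPM.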

How the data were processed

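The poly(A) transcripts of 16 libraries were sequenced from one end, and samples were grouped by their titles. The sources disagree on the sequencer, the library kit and the number of replicates, and the labels were followed. Per the methods, the authors mapped reads to hg19 (GRCh37) with STAR, keeping unique hits, and counted them over exons of RefSeq genes. The table the authors deposited gives CPM under 26258 gene IDs, and a symbol was found for 26111. The values were whole multiples of a step in each library, so reads could be recovered, and 100% of them were whole within 0.05 reads. The precision of a count covers counting error only.

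Since the table holds CPM, limma 3.58.1 in R 4.3.3 was run with a mean-variance trend on log2(CPM + 1), in one model of all 8 groups, over the 15019 genes that reached 1 CPM in 2 or more libraries. IR, CR and DMSO cells were compared with parental cells of their line, the parental lines with each other, and the mean IR and CR change between the lines. Gene coordinates and lengths are from GENCODE's MANE transcripts on GRCh37 and promoters from RefSeq.

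The 10 genes, the pathway and marker lists and the rules were chosen with earlier results of these data known. All 10 genes are named. From the lists, genes called in the same direction in all 4 resistant comparisons are named, with the 2 largest and the 2 lowest mean changes. LATS1 was named after its values were seen. For YAP1, CCN1, CCN2 and ANKRD1 the 3 most correlated genes are named, among genes whose group means had an SD of at least 0.5. Alternatives were edgeR 4.0.16 and DESeq2 1.42.0 on recovered reads, TMM factors, quantile normalization, pseudocounts of 0.25 and 4 CPM, other filters, other sets of libraries, a replicate block, unadjusted p, DMSO libraries as reference and leaving out each library.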

Additional observations from a re-analysis of the deposited data

Results flagged for a closer look

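The changes of 6 genes with resistance differed between Huh7 and Hep3B by the test of the difference itself, an interaction contrast in the common limma model. On the log2 scale the difference, Huh7 minus Hep3B, was -2.46 for CCN2, -1.50 for CCN1 and -1.28 for ANKRD1, and it was 1.14 for LATS2, 0.95 for F3 and 0.74 for TEAD4. The mean change also had opposite signs in the 2 lines for CCN2, CCN1, LATS2 and TEAD4, although that of CCN1 was small in Huh7, at -0.12, beside 1.38 in Hep3B. CCN2 was lower in all resistant Huh7 libraries and higher in all resistant Hep3B libraries than in the parental and DMSO libraries, and LATS2 and TEAD4 were the reverse. Of all genes tested, 29.4% had a called difference between the lines. How many of all genes had opposite signs, or separated in opposite directions, was not counted. Each line contributes 1 derivative per selection regimen, so a difference between lines and a difference between derivatives cannot be told apart.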

How the results depend on the processing

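Of 1440 alternative values of the 10 genes, 1336 kept both direction and call, 41 lost a call and 11 gained one. In the remaining 52 the sign differed, and in all of these neither value was called. The counts of genes called moved with the libraries left out and with other settings. Under settings other than leaving out 1 library, the count was 5 to 7 in Huh7-IR and 5 to 8 in Hep3B-IR cells. The highest of these came with the DMSO libraries as reference, for which the share of all genes called was not counted. The count lay between 2 and 4 in Huh7-CR, where it was 2 without Huh7 parental replicate 2 or Huh7-CR replicate 2. It was also 2 to 4 in Hep3B-CR, with 2 without either parental replicate, and with no filter on low genes the Hep3B-CR count was 2. In Huh7 DMSO cells it was 0 to 1. The replicate number as a block gave the same counts as the model without it, 5 and 4 for IR and CR cells of Huh7 and 6 and 4 for those of Hep3B, and changed no call. The sources do not say whether the numbers pair the libraries. Deviations of replicate 1 from the group means correlated above 0.1 in 13 of 28 pairs of groups, with a lowest value of -0.22 and a highest of 0.44. AJUBA was higher in replicate 1 than in replicate 2 of every group, and for Huh7-IR cells the block lowered its SE from 0.23 to 0.14. A model without the Huh7 DMSO libraries, chosen after seeing the data, also gave 5, 4, 6 and 4. The models of each line alone were not run for comparisons between lines. The cause of a changed value was not tested.

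Against the DMSO libraries, uncalled values changed sign to 0.088 for CCN1 and -0.44 for ANKRD1 in Huh7-IR, to -0.079 for ANKRD1, 0.21 for AJUBA and 0.67 for CCDC80 in Huh7-CR, and to 0.41 for VGLL3 in Hep3B-IR cells. In Hep3B-CR cells they were 0.13 for AJUBA, 0.21 for VGLL3, 0.049 for IGFBP3 and 0.19 for CCDC80. With edgeR, DESeq2 and TMM factors, ANKRD1 in Huh7-IR cells was -0.12, -0.13 and -0.12, TEAD1 in Hep3B-CR cells -0.039, -0.058 and -0.037, LATS2 in Hep3B DMSO cells -0.010, -0.020 and -0.0061, and the AJUBA difference between lines -0.033, -0.018 and -0.0056. The TEAD1 difference was -0.0092 with edgeR. Quantile normalization gave 0.045 for CCN1 in Huh7-IR cells and, in Hep3B DMSO cells, 0.056 for YAP1, -0.10 for F3 and -0.012 for LATS2.

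With each library left out in turn, these values spanned 0. In Huh7-IR cells CCN1 ranged from -0.33 to 0.26 and ANKRD1 from -0.084 to 0.24. In Huh7-CR cells TEAD1 ranged from -0.021 to 0.33 and CCN1 from -0.50 to 0.085. In Hep3B-IR cells AJUBA ranged from -0.13 to 0.45 and DCHS1 from -0.47 to 0.36. In Hep3B-CR cells the ranges were -0.049 to 0.21 for TEAD1, -0.47 to 0.21 for AJUBA, -0.65 to 0.18 for DCHS1 and -0.60 to 0.21 for IGFBP3. In Huh7 DMSO cells they were -0.059 to 0.59 for WWTR1, -0.33 to 0.14 for TEAD4, -0.41 to 0.17 for CCN1 and -0.036 to 0.027 for LATS2, and in Hep3B DMSO cells -0.14 to 0.13 for YAP1, -0.040 to 0.13 for F3 and -0.076 to 0.093 for LATS2. WWTR1 between the parental lines ranged from -0.49 to 0.065, and the differences between the changes of the lines from -0.11 to 0.24 for TEAD1 and from -0.12 to 0.22 for AJUBA.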

Other observations

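IR and CR derivatives of a line were not compared by a test, and their values are given side by side. The share of all genes whose IR and CR libraries do not overlap was not counted. The orders below therefore describe these libraries and no more. In Hep3B both IR libraries exceeded both CR libraries for YAP1, WWTR1, CCN1, CCN2, ANKRD1 and F3, with group means of 686 and 245 CPM for CCN2, 248 and 136 for CCN1 and 216 and 117 for WWTR1. LATS2 and TEAD4 had the reverse order, at means of 17.6 and 23.1 CPM for LATS2. In Huh7 the IR libraries exceeded the CR libraries for YAP1, with means of 163 and 127 CPM, and for TEAD1, AJUBA and LATS2, while F3, with means of 26.1 in IR and 40.3 in CR cells, TEAD4 and ANKRD1 had the reverse order. The libraries of the remaining genes overlapped.

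Among the other Hippo pathway genes, AMOT, which encodes a junction protein that binds YAP, was called in all 4 comparisons but in opposite directions, with log2 fold changes for IR and CR cells of 1.38 and 0.94 in Huh7 and -0.87 and -2.37 in Hep3B (SE 0.29). NF2, the gene of the upstream tumor suppressor merlin, was called higher in both resistant Hep3B groups, at 1.17 and 0.89 (SE 0.18), and had values of -0.15 and 0.51 in Huh7-IR and Huh7-CR cells, which were not called. Among the further targets, FJX1 was called higher in Huh7-IR (1.96), Huh7-CR (1.70) and Hep3B-CR cells (0.87) and lower in Hep3B-IR cells (-1.23). FJX1 levels were low, with means of 0.0900 CPM in parental, 3.57 in IR and 2.60 in CR cells of Huh7. In Hep3B they were 1.92 in parental, 0.247 in IR and 4.34 in CR cells. At such levels the fold changes depend on the added 1 CPM. These 3 genes fall outside the naming rule and were chosen after their values were seen.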
